A study of Mus musculus with 2 samples.

Results

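The 8 genes described here mark Schwann cell precursors and glia, and they were found by Ensembl identifier among the 43346 gene rows of total RNA-seq tables of newborn mouse adrenal gland. They are the transcription factor genes Sox10 and Foxd3, the receptor gene Erbb3 and its ligand gene Nrg1, the adhesion gene Cdh19, and the glial and myelin genes Fabp7, S100b and Mbp. All 8 had a row in both tables and passed the minimum mean count of 10. The tissue was taken at postnatal day 0 from strain B6NCrl, and each of the 2 libraries held the 2 adrenals of 1 pup, called pup 1 and pup 2. By their labels the pups share a dam (pregnant 1), and neither treatment nor sex is recorded. Each library started from 10 ng of RNA, with spike-in RNA added. With 1 group there is no contrast between conditions, and what can be given is the level of each gene and its difference between pups. A difference between pups has no replicate check, and its interval covers counting error only.

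Schwann cell precursors are glial cells that travel along growing nerves. Neuregulin 1 on the axon binds ErbB3 on the precursor, ErbB3 pairs with ErbB2 to signal, and the precursor survives and migrates. In the mouse embryo such precursors reach the adrenal along the preganglionic nerve, and many chromaffin cells of the medulla arise from them. Those that stay glial become Schwann cells of the nerve and the sustentacular cells that surround chromaffin cells. In bulk tissue, fewer cells of a type and less RNA per cell cannot be told apart.

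The libraries held 41504306 and 40799446 counts in pups 1 and 2. The 8 genes together took 164 CPM (counts scaled to the library total) in pup 1 and 93.8 CPM in pup 2. Levels are given in TPM, a length-corrected share of all transcripts that allows genes to be compared. The labels name the adrenal gland, and its chromaffin markers were high in both pups. Chga, a granule protein gene, stood at 557 and 1522 TPM, Chgb at 265 and 791 TPM and Th, the tyrosine hydroxylase gene, at 303 and 573 TPM.

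The sequence ahead of the start site is shown for Fabp7, S100b and Foxd3, the members matched in the RefSeq promoter table (GRCm38.p6, the build also called mm10). Each window begins 250 bases before the RefSeq start and holds 208 bases of the plus strand, printed 5′ to 3′. Capitals mark the CCAAT box or a SOX hexamer. The hexamers were ACAAAG with its variant form ACAATG, and beginning with T instead TCAAAG with its variant form TCAATG. All were searched on both strands, and no match overlaps another.

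Fabp7, chr10:57784673-57784880: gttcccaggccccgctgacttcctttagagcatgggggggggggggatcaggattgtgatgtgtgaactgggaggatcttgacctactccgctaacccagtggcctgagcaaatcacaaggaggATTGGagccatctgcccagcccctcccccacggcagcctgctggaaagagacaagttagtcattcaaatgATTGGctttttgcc
S100b, chr10:76253586-76253793: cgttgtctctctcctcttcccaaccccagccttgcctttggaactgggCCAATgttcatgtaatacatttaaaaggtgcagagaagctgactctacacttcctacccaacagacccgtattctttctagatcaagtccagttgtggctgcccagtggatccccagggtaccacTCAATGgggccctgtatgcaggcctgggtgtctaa
Foxd3, chr4:99656049-99656256: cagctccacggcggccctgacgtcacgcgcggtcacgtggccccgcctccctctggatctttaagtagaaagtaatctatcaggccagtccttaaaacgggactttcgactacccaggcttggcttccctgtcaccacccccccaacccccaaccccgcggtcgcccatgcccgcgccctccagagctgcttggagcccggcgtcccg

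The Fabp7 window held 2 CCAAT matches, both on the minus strand and so printed as ATTGG, and the S100b window held 1 on the plus strand. A SOX hexamer occurred once, as TCAATG in the S100b window. Of 32851 windows of this length in the table, 29.6% held CCAAT and 35.2% held a SOX hexamer. The TATA box TATAAA and the GC box GGGCGG, found on either strand in 9.47% and 26.2% of all windows, had no match in these 3, which says only that these letters are not in them. All windows stop short of the RefSeq start, and the bases between were not searched. The windows differed in composition, with 56.2% G and C for Fabp7, 51.4% for S100b and 65.4% for Foxd3, against a median of 51.9% over all windows. A match of letters is a description and not a binding site.

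Fabp7 stood far above the other genes, and all 8 reached TPM 1 in both pups, as did 60.5% of 21474 protein-coding genes (61.8% in pup 1 and 62.9% in pup 2). By mean TPM the order was Fabp7, Mbp, Sox10, S100b, Cdh19, Erbb3, Foxd3 and Nrg1. The pups' values of neighbouring genes in this order did not overlap, except for Foxd3 and Nrg1. The gap was narrow between Cdh19, whose lower value was 2.75 TPM, and Erbb3, whose higher value was 2.69 TPM, and their quantifier's intervals overlapped in pup 1.

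**Figure D1:**
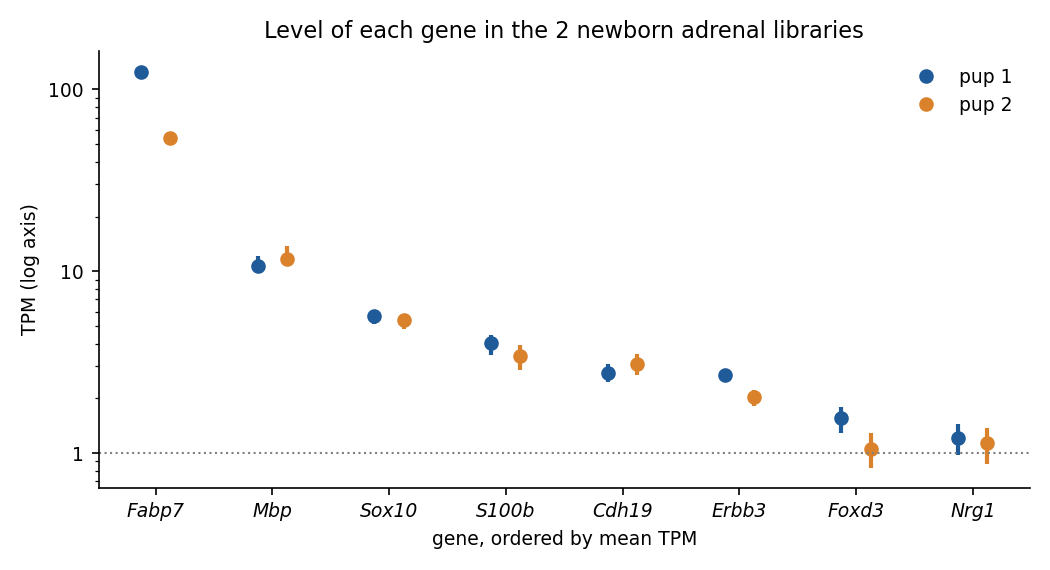
TPM (log axis) of each of the 8 genes in pup 1 and pup 2, with vertical lines for the quantifier's interval and a dotted line at TPM 1. Fabp7 lies at 125 and 54.2 TPM, apart from the other 7 genes, which lie between 1.06 and 11.7 TPM.

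Between the pups, all 8 genes were lower in pup 2 relative to the median of all genes. The TMM-scaled log2 ratio of pup 2 over pup 1, where a value below 0 means more in pup 1, was below 0 for 8 of 8 genes, against 49.8% of 18670 genes. The counting interval of the ratio lay wholly below 0 for 8 of 8, against 34.8% of all genes. The median was -0.55 over the 8 genes and 0.00202 over all genes. Of the 8 only Fabp7 lay over 2-fold apart, as did 9.76% of all genes in that direction, and none of the 8 lay over 2-fold higher in pup 2, as 6.03% of all genes did. These ratios depend on the scale. With spike-in counts as the scale the median of all genes moved to 2.57 and all 8 genes turned higher in pup 2, and by TPM, where the median of all genes was 0.39, Mbp and Cdh19 turned higher in pup 2. Relative to the median of all genes on each scale, every member with a value lay below it in each of the 10 alternatives of scale, unit, filter and trend. For DESeq2 size factors, spike-in counts and library totals this was fixed in advance, since each shifts all genes by the same amount. Dropping the minimum count leaves the ratios of the 8 genes as they were and changes only the median. Posterior mean counts leave these ratios nearly unchanged too, since the posterior standard deviation of all 8 counts was 0 in both pups. FPKM differs from TPM by 1 factor per library, so relative to the median it repeats the TPM result. Directions between pups given in what follows are on the TMM scale unless another is named, and with spike-in scaling 0.932% of all genes would remain below 0.

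**Figure D2:**
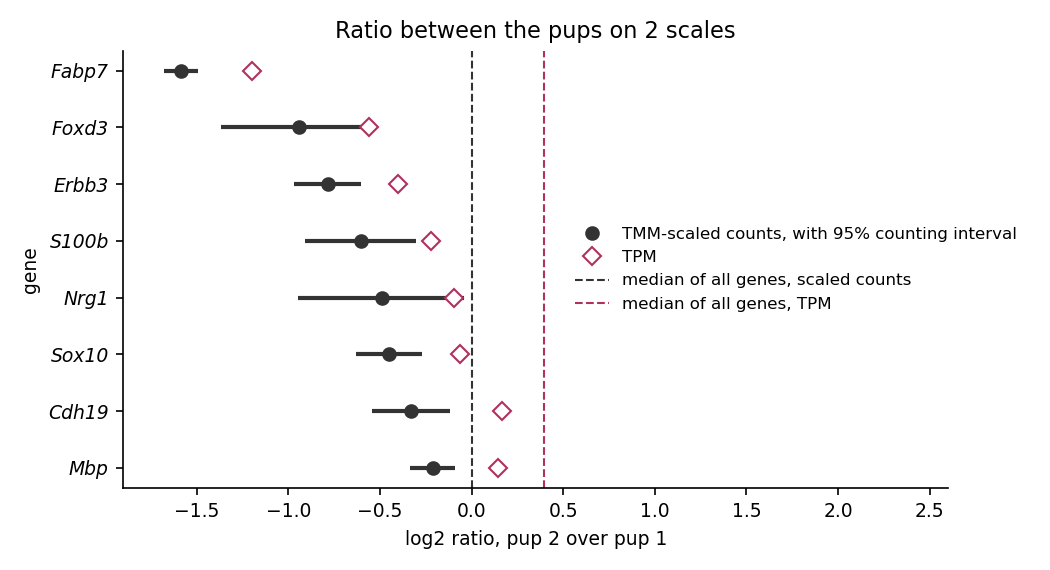
Log2 ratio of pup 2 over pup 1 for the 8 genes, as TMM-scaled counts with 95% counting intervals (filled points and lines) and as TPM (open diamonds), with dashed lines at the median of all genes on each scale. All points lie left of the dashed line of their own scale, while Mbp and Cdh19 lie right of 0 by TPM and, with spike-in scaling, all 8 genes would.

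Nrg1, the ligand of the axis, was the lowest of the 8 by mean TPM, with Foxd3 below it in pup 2. Nrg1 (ENSMUSG00000062991.6, mm10 chromosome 8, 31814551 to 32884029, minus strand) had 98 counts in pup 1 and 74 in pup 2, or 1.21 and 1.13 TPM. Its mean of 1.17 ± 0.0566 TPM (SD, n = 2) differed little between pups, and the quantifier's intervals, 0.973 to 1.45 and 0.872 to 1.38 TPM, overlapped. The scaled log2 ratio was -0.49 with a 95% interval of -0.95 to -0.04. The tables hold 1 Nrg1 transcript, Nrg1-201, whereas GENCODE M21 lists 18 for this gene of 1069479 bases. That transcript starts 965749 bases downstream of the gene's first base and is 2103 bases long in the tables. Its M21 version of 2452 bases covers 23.7% of the 10351 exonic bases of the gene. Neuregulin 1 forms, including those tethered to the axon membrane, were therefore not measured apart, and reads of exons outside this transcript had no Nrg1 row.

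Erbb3, the receptor that binds neuregulin on Schwann cell precursors, was low and higher in pup 1. Erbb3 (ENSMUSG00000018166.8, chromosome 10, 128567523 to 128589652, minus strand) had 642 and 395 counts, or 2.69 and 2.04 TPM, and its quantifier's intervals (2.45 to 2.86 and 1.82 to 2.21 TPM) did not overlap. Its scaled log2 ratio was -0.78 (95% interval -0.97 to -0.60), a 1.72-fold difference, with a mean of 2.37 ± 0.46 TPM (SD, n = 2). Its signalling partner Erbb2, named outside the rule, stood at 7.92 and 6.32 TPM with a log2 ratio of -0.75. In both pups Erbb2 thus exceeded Erbb3 by a similar factor, 2.94 in pup 1 and 3.10 in pup 2. Erbb3 is also made by epithelia, whose 10 markers summed to 63.4 TPM in pup 1 and 59.2 TPM in pup 2. Of these, Krt18 stood at 15.4 and 13.9 TPM, Krt8 at 11.8 and 15.2 TPM and Cldn3 at 6.05 and 7.5 TPM. Gkn1 of the stomach lining, named outside the rule, had 248 counts in pup 1 and 0 in pup 2, which allows up to 3. By scaled counts 4 epithelial markers were above the other pup in each pup, against 34.8% of all genes in each direction. Another 2 had intervals that held 0, and the part of epithelia in Erbb3 was not tested.

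The other neuregulin and ErbB genes were split, with 3 of 10 higher in pup 1, 2 higher in pup 2 and 5 whose intervals held 0. These shares were no larger than the 34.8% of all genes called in each direction. The sheddases that cut neuregulins from the membrane were the most abundant. Adam10 had 24.8 and 31.7 TPM, Bace1 had 17.3 and 17.9 TPM, and Adam17 had 12.99 and 22.0 TPM. Of these, Bace1 was on the side of pup 1 (log2 ratio -0.40) and Adam17 on that of pup 2 (0.37) by scaled counts. Among further neuregulins Nrg2 stayed under 1 TPM (0.44 and 0.50), while Nrg3 (1.71 and 2.24 TPM) and Nrg4 (1.36 and 0.87 TPM), both named outside the rule, were near Nrg1. Erbb4, a neuregulin receptor of heart and brain, had 9 and 28 counts, or 0.02 and 0.16 TPM. Over these 10 genes the median was -0.13.

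Sox10, the factor that specifies and maintains the glial lineage of the neural crest, had nearly the same TPM in both pups. Sox10 (ENSMUSG00000033006.9, chromosome 15, 79154908 to 79165240, minus strand) had 595 and 462 counts, or 5.64 and 5.39 TPM, with overlapping quantifier's intervals (5.13 to 6.02 and 4.83 to 5.80 TPM). Its mean was 5.52 ± 0.177 TPM (SD, n = 2). On the scaled counts its log2 ratio was -0.45 (95% interval -0.63 to -0.27). The tables hold 1 of its 4 transcripts in M21, Sox10-201, which covers 88.9% of the annotated exonic bases.

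Foxd3, a forkhead factor of early crest and glial precursors that falls as cells leave that state, was low, near the mark of TPM 1. Foxd3 (ENSMUSG00000067261.4, chromosome 4, 99656299 to 99658622, plus strand) had 140 and 77 counts, or 1.56 and 1.06 TPM. It is a gene of 1 exon. The quantifier's intervals, 1.29 to 1.80 and 0.829 to 1.29 TPM, met at their ends without overlapping. The log2 ratio was -0.94, a 1.92-fold difference, with a wide 95% interval of -1.37 to -0.54 from these few counts.

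Of 13 other transcription factors of crest and Schwann lineage, 12 had enough counts. Intervals lay on the side of pup 1 for 6 and on that of pup 2 for 3, against 34.8% of all genes in each direction. The median was -0.28. Tfap2b, an AP-2 factor of sympathoadrenal cells, led at 42.4 and 23.4 TPM and was higher in pup 1 (log2 ratio -1.33). Zeb2 (12.4 and 20.8 TPM, log2 ratio 0.34) and Ets1 (9.62 and 16.8 TPM, 0.41), which other tissue cells also make, were higher in pup 2. Pax3, a factor of early crest, had 0 counts in both pups, which allows up to 3 counts in each. Pou3f1 (0.20 and 0.21 TPM) and Pou3f2 (0.23 and 0.18 TPM), regulators of myelin onset, stayed under 1 TPM. Egr2, named outside the rule, which drives myelin genes in Schwann cells, stood at 1.17 and 0.38 TPM.

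Fabp7, the brain-type fatty acid binding protein of precursors and immature glia, held most of the summed level of the 8 genes. It made up 81.4% of their TPM in pup 1 and 66.0% in pup 2. Fabp7 (ENSMUSG00000019874.7, chromosome 10, 57784881 to 57788450, plus strand) had 3545 and 1254 counts, or 125 and 54.2 TPM. The quantifier's intervals were 119 to 127 TPM and 50.3 to 56.3 TPM, far from overlap. Fabp7 ranked above 95.8% of protein-coding genes in pup 1 and 88.3% in pup 2. Its log2 ratio was -1.58 (95% interval -1.68 to -1.49), a 2.997-fold difference, and its mean was 89.4 ± 49.7 TPM (SD, n = 2). Transcript Fabp7-201 took 99.2% ± 0.0778 of its TPM (SD, n = 2).

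Fabp7 belongs to a family of small lipid carriers, some of which were more abundant here, so the stretch of coding sequence that it shares most with a relative is shown. Bases 152 to 211, counted from the first coding base, were aligned for Fabp7 and the 3 genes nearest in coding sequence (GENCODE M21 transcripts). In the relatives capitals mark bases equal to Fabp7, and in Fabp7 they mark the 29 of 60 bases equal in all 4.

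Fabp7: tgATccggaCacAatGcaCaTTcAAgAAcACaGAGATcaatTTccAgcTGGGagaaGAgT
Fabp3: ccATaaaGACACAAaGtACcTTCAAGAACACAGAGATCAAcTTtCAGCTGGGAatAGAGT
Pmp2: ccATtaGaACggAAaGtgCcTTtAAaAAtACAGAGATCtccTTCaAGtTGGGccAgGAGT
Fabp4: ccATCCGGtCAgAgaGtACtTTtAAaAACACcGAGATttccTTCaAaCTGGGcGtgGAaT

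Over the whole coding sequence Fabp7 matched Fabp3 at 66.7% of aligned bases, Pmp2 at 60.7% and Fabp4 at 59.9%. The longest unbroken run shared between the Fabp7 transcript and any of the 7 relatives was 20 bases, with Fabp3. The posterior standard deviation of the Fabp7 count was 0 in both pups, as it was for all 8 genes, so the quantifier divided no reads between them and other genes. Fabp4, of adipocytes and capillary endothelium, stood at 667 and 824 TPM, Fabp5 at 226 and 161 TPM and Fabp1, of liver, at 177 and 127 TPM. Fabp3, named outside the rule, had 22.4 and 15.9 TPM. Pmp2, the family member of peripheral myelin, had 9 and 2 counts, or 0.17 and 0.05 TPM. All 5 relatives with enough counts had intervals below 0 by scaled counts, against 34.8% of all genes. Their median was -0.87, but Fabp4 (-0.06) turned to 0.30 by TPM.

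S100b, a calcium-binding protein of Schwann and sustentacular cells, was low and near level between pups by TPM. S100b (ENSMUSG00000033208.7, chromosome 10, 76253853 to 76261159, plus strand) had 224 and 156 counts, or 4.01 and 3.44 TPM, with overlapping quantifier's intervals (3.46 to 4.49 and 2.88 to 3.94 TPM). The log2 ratio was -0.61 (95% interval -0.91 to -0.31). Its annotated span overlaps Dip2a on the opposite strand, named outside the rule, which had 940 and 1102 counts, and strand handling was not given in the sources used here. Adipocytes and cartilage also make S100b. Of 5 adipocyte markers, 4 had enough counts and 3 were higher in pup 2, against 34.8% of all genes. Their summed level was 6.72 TPM in pup 1 and 35.1 TPM in pup 2, led by Plin1 (4.26 and 15.9 TPM), Adipoq (0.10 and 14.9 TPM) and Pparg (1.58 and 2.56 TPM), with Lep at 0 and 1 counts. The 4 cartilage markers summed to 0.91 and 2.71 TPM, with Matn1 at 0 counts in both. Col2a1 had 0.27 and 1.91 TPM, Col9a1 0.61 and 0.70 TPM and Acan 0.03 and 0.10 TPM. Of the 3 with enough counts, Col2a1 and Acan were higher in pup 2 by scaled counts, against 34.8% of all genes. The part of adipocytes and cartilage in the level of S100b was not tested.

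Cdh19, a cadherin of Schwann cell precursors, changed side between the scales. Cdh19 (ENSMUSG00000047216.8, chromosome 1, 110888326 to 110977584, minus strand) had 401 and 338 counts, or 2.75 and 3.09 TPM, and its quantifier's intervals (2.45 to 3.09 and 2.68 to 3.53 TPM) overlapped. The scaled log2 ratio was -0.33 (95% interval -0.54 to -0.12) and the TPM ratio 0.17. Its transcripts differed in share between the pups. The coding transcript Cdh19-201 took 93.6% and 84.6% of the TPM, and the short noncoding Cdh19-202 of 787 bases took 6.39% and 15.4%, from 4.88 and 10.8 counts. With so few counts the intervals of Cdh19-202 overlapped, and a difference was not detectable at this depth.

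Mbp, the myelin basic protein gene, was the second most abundant of the 8 and the one whose scaled ratio lay nearest to level. Mbp (ENSMUSG00000041607.12, chromosome 18, 82475146 to 82585637, plus strand) had 1169 and 1070 counts, or 10.6 and 11.7 TPM, with overlapping quantifier's intervals (10.3 to 12.2 and 11.4 to 13.8 TPM). Its scaled log2 ratio was -0.21 (95% interval -0.33 to -0.09), and the TPM ratio was 0.14. The gene has an upstream start that gives golli transcripts, known from neurons and immune cells, and a downstream start that gives the transcripts of compact myelin.

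Transcripts of both Mbp starts were assigned reads. Of 16 transcripts, 4 began within 224 bases of the gene's first base and 12 began 79324 to 88116 bases downstream. The upstream group took 42.95% of Mbp TPM in pup 1 and 44.5% in pup 2, a mean of 43.7% ± 1.10 (SD, n = 2). In counts, where transcript length weighs in, it took 711 of 1169 in pup 1 and 661 of 1070 in pup 2. The share of each group was steady between pups, whereas the division among single downstream transcripts depended on the estimate. Mbp-205, an upstream transcript, held 27.7% and 29.7%, and Mbp-201, also upstream, 13.9% and 10.9%.

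Among downstream transcripts Mbp-210 held 25.7% and 10.1%, Mbp-211 7.46% and 19.2%, Mbp-207 4.23% and 6.47%, Mbp-206 0% and 19.2% and Mbp-212 14.4% and 0.02%. The quantifier's TPM intervals of all 7 transcripts of at least 5% overlapped between pups. Among smaller ones Mbp-208, an upstream transcript at 1.33% and 3.90%, had intervals apart. By the quantifier's posterior percent the downstream transcripts lay closer, with Mbp-206 at 4.66% and 9.57% and Mbp-212 at 7.43% and 6.31%. Markers of cells that use golli transcripts were present. Of the 6 leukocyte markers Lyz2 had 225 and 138 TPM, C1qb 173 and 148 TPM and Ptprc 1.82 and 3.33 TPM, whereas Cd3e (0.17 and 0.02 TPM) stayed under 1. Of 5 leukocyte markers with enough counts, Lyz2 and C1qb were higher in pup 1 and Ptprc in pup 2. Of all genes, 34.8% were called in each direction. The 6 leukocyte markers summed to 402 and 292 TPM. Their part in the level of Mbp was not tested.

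**Figure D3:**
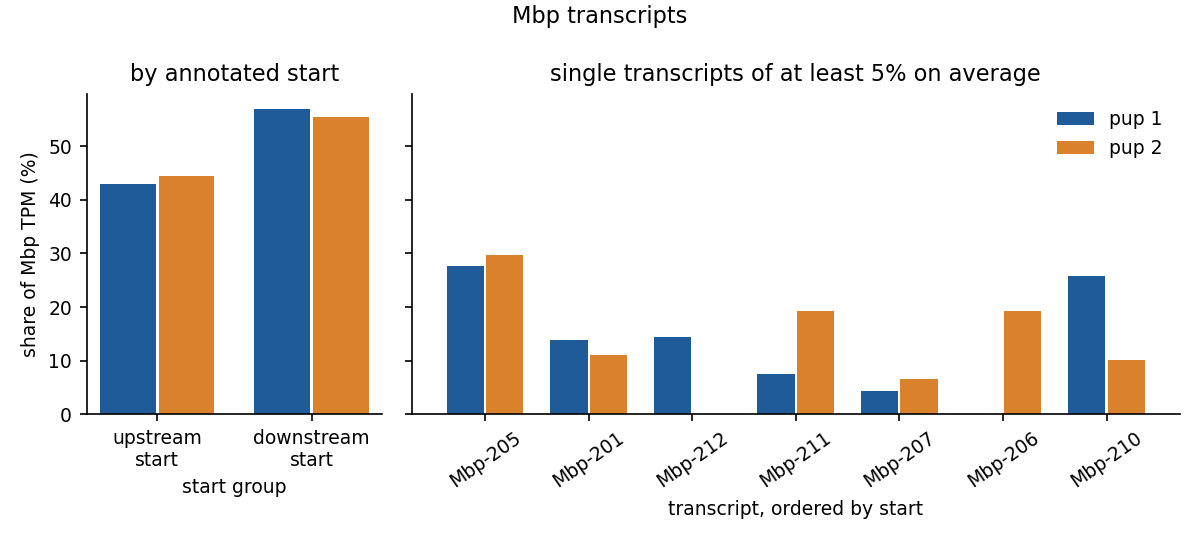
Share of Mbp TPM in percent, for transcripts grouped by annotated start (left) and for single transcripts of at least 5% on average (right), with 1 bar for each pup. The upstream group stands at 42.95% and 44.5%, while single downstream transcripts such as Mbp-206 (0% and 19.2%) differ within overlapping quantifier's intervals, and less by posterior percent (4.66% and 9.57%).

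Ratios within a library need no scaling between libraries, and they show how the 8 genes moved against each other. Fabp7 was 22.1 times Sox10 in pup 1 and 10.1 times in pup 2 by TPM, a log2 change of -1.13 (95% interval -1.34 to -0.93). Erbb3 (-0.34, interval -0.59 to -0.08) and Foxd3 (-0.49, interval -0.96 to -0.05) also fell further than Sox10. Mbp moved the other way (0.24, interval 0.02 to 0.45), from 1.89 to 2.18 times Sox10. For S100b (-0.16), Nrg1 (-0.04) and Cdh19 (0.12) the intervals held 0. The point estimate was below 0 for 5 of 7 genes, against 25.0% of 18669 genes with a lower ratio than Sox10. The comparison was added after the ratios were seen.

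**Figure D4:**
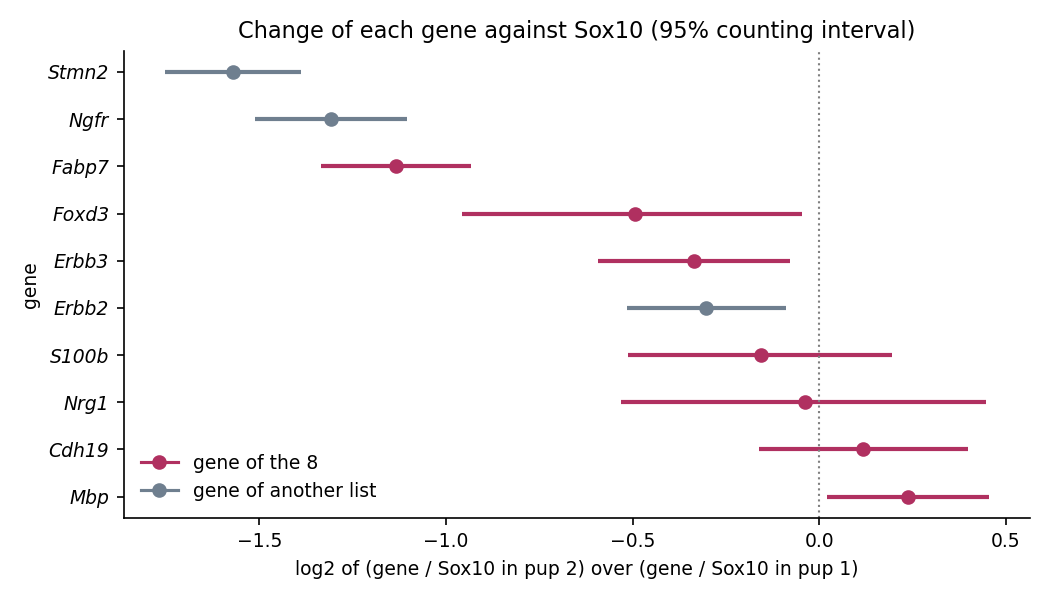
Log2 change between pup 1 and pup 2 of each gene divided by Sox10, with 95% counting intervals, for the other 7 genes (red) and 3 genes of other lists (grey). The interval of Fabp7 (-1.13) overlaps that of Ngfr (-1.31) and lies apart from that of Stmn2 (-1.57), while S100b, Nrg1 and Cdh19 have intervals that hold 0.

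Other surface and secreted genes of Schwann cell precursors were mostly higher in pup 1, with 9 of 12 past the counting interval in that direction and none in the other. Of all genes, 34.8% were past it in each direction. Their median log2 ratio was -0.70, from -1.93 to 0.24. Ncam1, an adhesion molecule shared with neurons and chromaffin cells, led at 90.7 and 41.1 TPM (log2 ratio -1.54). Serpine2, a secreted protease inhibitor gene, had 32.1 and 34.1 TPM (-0.30). Ngfr, the low-affinity neurotrophin receptor gene shared with sympathetic neurons, named outside the rule, had 27.2 and 10.5 TPM and changed by -1.31 against Sox10 (interval -1.51 to -1.10).

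Neuron markers moved with these genes. All 7 were over 2-fold higher in pup 1 (median -1.96), against 9.76% of all genes. Their summed level was 1179 TPM in pup 1 and 388 TPM in pup 2. Stmn2 stood at 366 and 113 TPM, Gap43 at 292 and 97.9 TPM and Tubb3 at 221 and 71.1 TPM, and no marker was at 0. Chromaffin markers went the other way for 4 of 6, with 1 higher in pup 1, against 34.8% of all genes in each direction. Their median was 0.80 and their sums were 1451 and 3495 TPM. The part of neurons or nerve in the ratios of the 8 genes was not tested.

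**Figure D5:**
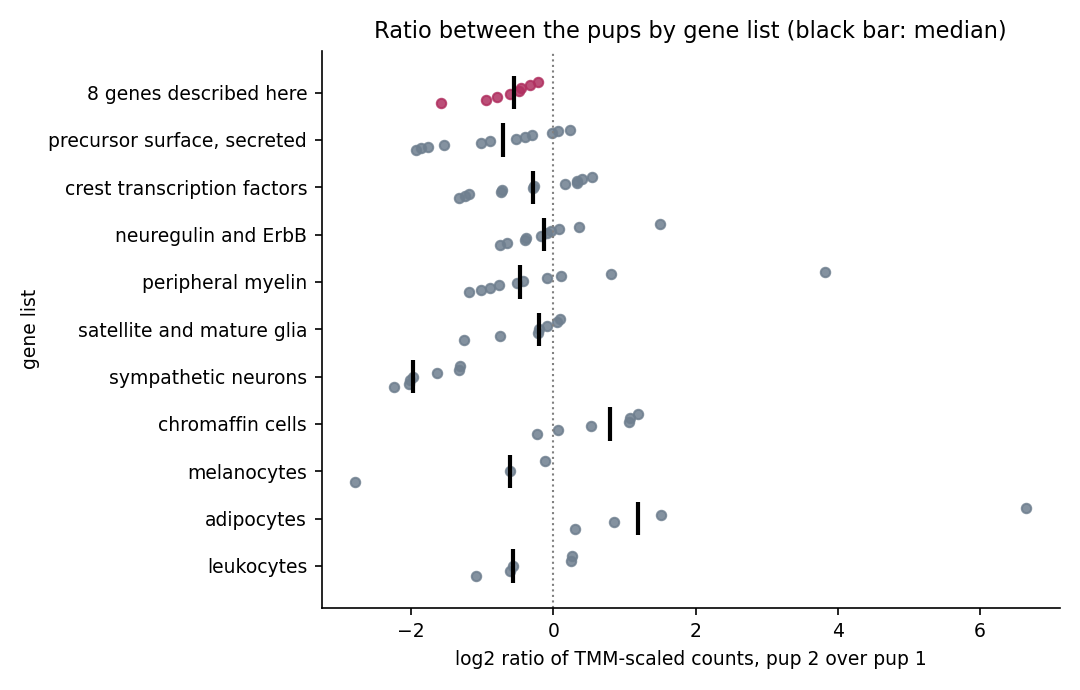
Log2 ratio of TMM-scaled counts, pup 2 over pup 1, for each gene with a mean count of at least 10, by gene list, with a black bar at the median. The epithelium, astrocyte, oligodendrocyte, cartilage, bridge cell, Fabp and S100 lists are not drawn. The 8 genes (red) have a median of -0.55, between the neuron list at -1.96 and the chromaffin list at 0.80; positions are relative to the bulk of genes, since spike-in scaling moves the median of all genes by 2.57.

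Peripheral myelin genes leaned to pup 1, with 6 of 10 higher there against 2 in pup 2 and a median of -0.47. Of all genes, 34.8% were called in each direction. Pmp22, a myelin protein gene that many mesenchymal cells also make, was the highest at 167 and 153 TPM. Cnp had 35.3 and 49.7 TPM. Mag, which marks the inner wrap of formed myelin, stayed at 0.18 and 0.42 TPM, and Cldn19 at 0.03 and 0.46 TPM. Of 7 genes of mature glia, 3 were higher in pup 1, a share near the 34.8% of all genes, and 4 had intervals that held 0, with a median of -0.20. Glul (91.3 and 117 TPM) and Sparcl1 (40.9 and 46.4 TPM), both shared with other cells, were followed by Entpd2 (13.3 and 10.3 TPM), an ectonucleotidase of sustentacular cells. Gfap (0.58 and 0.71 TPM) and Kcnj10 (0.42 and 0.23 TPM) of satellite glia stayed under 1 TPM.

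Of genes of the transient bridge cells, which stand between Schwann cell precursor and chromaffin cell, Htr3a and Thbd were present in both pups and higher in pup 1. Htr3a, a serotonin receptor gene of these cells, had 2.87 and 2.05 TPM (log2 ratio -0.87). Thbd, also made by endothelium, had 16.6 and 14.7 TPM (-0.56). Of all genes, 34.8% were called higher in pup 1.

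Mbp, Fabp7 and S100b are also genes of central glia, whose markers were at or near 0 except for Gfap and Aldh1l1. The 5 oligodendrocyte markers summed to 0.24 TPM in pup 1 and 0.19 TPM in pup 2. Mobp had 9 and 8 counts, Olig1 8 and 3, Mog 3 and 2, Olig2 0 and 1, and Opalin 0 in both. Of 4 astrocyte markers, Aqp4 had 0.04 and 0.15 TPM and Gjb6 0 and 1 counts, whereas Aldh1l1, which liver also makes, had 18.2 and 65.6 TPM. The astrocyte list summed to 18.8 and 66.5 TPM. Of its 3 genes with enough counts, Aldh1l1 and Aqp4 were higher in pup 2, against 34.8% of all genes. Pigment cells also arise from Schwann cell precursors and keep Sox10. Their 6 markers summed to 3.77 and 3.59 TPM, and Mitf was the highest of them (1.78 and 2.53 TPM). Pmel stood at 0.88 and 0.75 TPM and Tyrp1 at 0.95 and 0.21 TPM. These last 2, of 3 pigment markers with enough counts, were higher in pup 1, against 34.8% of all genes. Dct (9 and 6 counts), Tyr (1 and 2) and Mlana (1 and 0) were near 0.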

How the data were processed

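Adrenal RNA of 2 newborn pups was sequenced, 1 library each. Each library came with deposited tables of genes and of transcripts. Their columns, per the file headers, are the expected count (an estimate that may be fractional), TPM, FPKM and, for transcripts, isoform percent. The deposited bounds of the quantifier's TPM interval (a signal per row) and the deposited posterior standard deviation of the count (a score of shared reads) were also read. Text deposited with each library names build mm10 and annotation GENCODE M4. Aligner, quantifier and strand handling: not given in the sources used here.

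GENCODE M21, also on mm10, gave symbols and positions by Ensembl identifier for 42462 of 43346 gene rows. Left out of library sizes were 97 spike-in rows (0.0138% and 0.00250% of counts in pups 1 and 2) and 26248 rows named by a number (2.65e-05% and 9.59e-05%). Rounded counts plus 0.5 were scaled by TMM in edgeR 4.0.16 (R 4.3.3). Log2 ratios are pup 2 over pup 1, for a mean count of 10 or more. Ratios have exact binomial (Clopper-Pearson) 95% intervals, and those against Sox10 exact conditional 95% intervals of an odds ratio. These intervals cover counting error only. Reads carry no molecular identifiers, so duplicate reads cannot be told from separate molecules, and the intervals may be too narrow. With 1 library a pup, no test between pups was made.

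Alternatives were DESeq2 1.42.0 size factors, spike-in counts or library totals, TPM or FPKM, posterior mean counts, a pseudocount of 5, no minimum count or one of 100, removal of a trend of degree 3 on length and GC content, and leaving out each pup. The comparison against Sox10 was added after seeing the data. The 8 genes and 17 other lists were chosen with earlier results of these data known. Named are all 8 genes, their transcripts of at least 5%, the 2 nearest genes to Fabp7 and Sox10 and, of each other list, the 3 highest by mean TPM and up to 3 under TPM 1 in both pups. Others are said to be outside the rule, and some genes the rule names are not reported here. Ratios and intervals were tested on simulated data, with python 3.11.15, numpy 2.4.6, pandas 2.3.3, scipy 1.17.1 and matplotlib 3.10.9.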

Additional observations from a re-analysis of the deposited data

How the results depend on the processing

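Of the alternatives, the scale between libraries moved the ratios most. With spike-in counts as the scale the median log2 ratio of the 8 genes was 2.02 and 0 of them were higher in pup 1, with Fabp7 at 0.99, Foxd3 at 1.63, Erbb3 at 1.78, S100b at 1.96, Nrg1 at 2.08, Sox10 at 2.12, Cdh19 at 2.24 and Mbp at 2.36. The spike-in rows held 0.0138% and 0.00250% of counts. By TPM the median was -0.16, with Mbp at 0.14 and Cdh19 at 0.17. Against Sox10, 5 other genes had a point estimate below 0, and the intervals of S100b and Nrg1 among them held 0. The cause was not tested. Genes over 2-fold apart numbered 2948 at a mean count of at least 10, 7655 with no minimum and 1278 at 100, where fewer genes are counted. DESeq2 size factors, library totals, FPKM, posterior mean counts, a pseudocount of 5, the count minimums and the length and GC trend left the sign of all 8 ratios as it was, with Nrg1 not counted at 100. Without 1 pup a ratio cannot be formed, and each level is then the other pup's value. No paired analysis was possible because there is 1 group. Of the 8 genes, Foxd3 and Nrg1 had the fewest counts and the widest intervals of their ratios.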

Other observations

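Other S100 genes stood far above S100b. S100a11 had 868 and 842 TPM in pups 1 and 2, S100a10 715 and 443 TPM and S100a6 284 and 185 TPM, all 3 made by many cell types. By scaled counts all 7 relatives had intervals below 0, relative to the bulk of genes, against 34.8% of all genes. Their median log2 ratio was -0.67 beside -0.61 for S100b. The S100b transcript shared no run of more than 14 bases with any of the 7, found with S100a4 and S100a16.

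By the distance of log2(TPM + 1) over the 2 libraries, the protein-coding genes nearest to Fabp7 were Pet100 (127 and 60.3 TPM) and Klc1 (123 and 62.5 TPM). Those nearest to Sox10 were Zfp951 (5.72 and 5.37 TPM) and Sphk1 (5.53 and 5.44 TPM). With 2 libraries such likeness says only that the levels were close.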
